A study of Mus musculus with 24 samples.

Results

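Lung RNA from old and young mice was compared on 6 of the 24 arrays of the series, those whose tissue label reads Lung. The mice were male C57BL/6J, 3 of them 90 weeks old (90W) and 3 of them 10 weeks old (10W). Total RNA of each lung was labelled with Cy3 and hybridized to an Agilent mouse array with 56605 different probes. The other arrays hold liver, kidney and white adipose tissue (WAT) at the same ages, and the labels do not say which tissues came from the same animal.

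A lung is a mixture of many cell types. Gas crosses thin alveolar type 1 cells, surfactant comes from alveolar type 2 cells, ciliated and secretory cells line the airways, and a dense capillary bed, fibroblasts, an elastic matrix and resident macrophages fill the wall between them. In old mice the lung is known for lymphocytes that gather around its vessels and airways, for changes of its elastic and collagen scaffold, and for cells that have stopped dividing.

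All 6 arrays carried the markers of lung. Sftpc, the surfactant protein C gene of alveolar type 2 cells, read 9.15, 9.14 and 9.16 at 10 weeks and 9.10, 9.71 and 9.16 at 90 weeks, in log2 units above the 75th percentile of the array. Scgb1a1, the main secreted protein of club cells, read 9.03, 9.0 and 9.06 against 8.96, 9.59 and 9.0. Ager, the receptor that marks type 1 cells, read 8.41, 8.34 and 8.34 against 8.20, 8.29 and 7.01. The ages overlapped for Sftpc and Scgb1a1, and for Ager 90-week replicate 3 lay far below the other lungs.

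The lungs stood on 1 slide and were scanned once. The 75th percentile of the background-subtracted signal, which sets the scale of each array, was 844.3, 914.2 and 863.3 units at 10 weeks and 862.4, 560.0 and 956.4 at 90 weeks. Probes well above background made up 68.2%, 69.8% and 68.3% of the array at 10 weeks and 59.5%, 66.0% and 70.0% at 90 weeks. The dimmest 90-week array was replicate 2, and the array with the fewest detected probes was 90-week replicate 1. The young lungs resembled each other most, with correlations across genes of 0.993 to 0.995 between pairs, against 0.975 to 0.980 between old pairs and 0.961 to 0.977 between ages. The median standard deviation of a gene was 0.121 over the young lungs and 0.202 over the old ones. The young arrays and 90-week replicate 1 lay in row 1 of the slide and the other 2 old arrays in row 2, so position and age cannot be told apart in full.

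The signal of marker genes of other tissues differed between the lungs. For 25 measured genes of liver parenchyma, of 28 listed, the summed signal in multiples of the 75th percentile was 31.5, 50.8 and 32.1 at 10 weeks, 513 in 90-week replicate 1, and 26.8 and 24.2 in 90-week replicates 2 and 3. As a share of the same sum in young liver this was 3.01% in 90-week replicate 1 and between 0.142% and 0.298% in the other lungs. Alb, the albumin gene, read -3.08, -0.53 and -2.82 in the young lungs and 6.68, 1.08 and -1.45 in the old ones. The sum thus stood out in 90-week replicate 1, while Alb, and Ambp and Fgb at -0.70 and -1.93, were also above every young lung in 90-week replicate 2, and Ambp, Fgg and Serpinc1 in all 3 old lungs. Apoa1 and Ugt2b5 were among the genes not measured. Of the 25 genes 1 rose, against 2.72% of all tested entries: Fgg, the fibrinogen gamma chain, at -1.27, -1.78 and -0.85 against 3.66, 0.97 and 1.93 (adjusted p = 0.0455). The list had a median change of 2.12 (1.21 without 10-week replicate 1, 3.21 without 90-week replicate 3), and of 0.25 without 90-week replicate 1, when 1 member was called higher and 2 lower. The list member with the highest mean signal was Rbp4, a retinol carrier that other organs also make, with a change of -0.16 (adjusted p = 0.833).

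Adipose genes went the other way. The summed signal of 20 white adipose genes was 334, 321 and 205 at 10 weeks and 90.8, 107 and 113 at 90 weeks, or 8.72%, 8.39% and 5.37% of the sum in young WAT against 2.37%, 2.79% and 2.95%. Every young lung thus held more adipose signal than every old lung, and all 20 genes had a negative change, with a median of -1.64. Of these genes 5 fell, against 2.89% of all tested entries: Plin1, Acvr1c, Retn, Cidec and Gpd1. In limma this count became 0, 0 and 1 without 10-week replicate 1, 2 or 3, 1, 3 and 7 without 90-week replicate 1, 2 or 3, and 1 with no filter on dim probes, and 15 of the 20 were lower at an unadjusted p under 0.05. By the methods' t-test it was 0 after adjustment and 11 without it. Plin1, which coats the fat droplet, read 0.18, 0.21 and -1.01 at 10 weeks and -6.04, -5.92 and -3.34 at 90 weeks, a change of -4.89 (adjusted p = 0.0291). Retn, the hormone resistin, read 2.34, 1.76 and 0.42 against -2.54, -2.27 and -1.03, a change of -3.46 (adjusted p = 0.0345). Acvr1c, an activin receptor of adipocytes, was well above background on no old array and was at least 5.24-fold lower (adjusted p = 0.0107). The brightest probe of the list belonged to Pnpla2, the lipase that starts fat breakdown, with a change of -0.27 (adjusted p = 0.416).

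Other markers split the lungs differently. Of 13 measured brown adipose genes none was called by limma, with 2 higher and 5 lower at an unadjusted p under 0.05 and a median of -0.53 (-0.80 without 90-week replicate 3, with 2 called lower, and -0.42 without replicate 1, with 2 called higher). Their sum was 44.2, 36.2 and 20.2 against 10.9, 13.6 and 22.4, the member with the highest mean signal was Fabp3, a fatty acid carrier (change -1.29, adjusted p = 0.192), and Ucp1, which defines brown fat, was not measured. The 20 cardiac muscle genes summed to 368, 305 and 124 at 10 weeks and 26.3, 101 and 224 at 90 weeks. None was called by limma, with 2 lower at an unadjusted p under 0.05, and the median change was -1.57 (-0.86 without 90-week replicate 1, -2.37 without replicate 3). Myh6, the myosin of heart atria and of the muscle sleeves of pulmonary veins, read 6.23, 5.98 and 4.60 against 1.13, 4.78 and 5.59, so that the ages overlapped and 90-week replicate 1 had the least.

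The skeletal muscle list had 12 measured members of 14, with Myh1 and Myh2 not measured, and a summed signal of 4.55, 5.06 and 3.65 against 3.09, 2.32 and 3.4, lower in every old lung. The median was -0.34, with 11 changes negative and 5 lower at an unadjusted p under 0.05. The 1 call, against 2.72% of all entries, was the positive member Actn3, an actinin of fast fibres, which rose by 1.22 (adjusted p = 0.0384). With normexp, another background correction, the median was -0.09, and limma called 0 higher and 1 lower. The brightest probe of the skeletal muscle list belonged to Tnni2, a fast troponin (change -0.19, adjusted p = 0.741). For cartilage and trachea 7 of 14 genes were measured, the sum was 4.33, 4.43 and 3.81 against 1.12, 1.76 and 2.1, and the median was -1.25 (-0.51 with normexp, when 2 were called lower). Krt5, the keratin of airway basal cells, fell from -1.54, -1.14 and -1.77 to -3.52, -3.26 and -3.16 (adjusted p = 0.0124), while Chad, a cartilage protein, had a change of -1.40 (adjusted p = 0.0781). Krt5 was the 1 call of this list, against 2.89% of all entries. Acan, Matn1, Matn3, Hapln1 and Cnmd of cartilage were not measured. For kidney 5 of 10 genes were measured and Umod, Kap and Nphs1 were not. Their sum was 2.83, 2.97 and 3.31 against 2.08, 1.55 and 1.63, lower in every old lung, their median was -0.19 (-0.29 without 10-week replicate 2, -0.33 and -0.34 without 90-week replicate 2 or 3), limma called none, with 2 lower at an unadjusted p under 0.05, and the member with the highest mean signal was Cdh16, a cadherin, with a change of -1.40 by its brightest probe (adjusted p = 0.0654) and of -0.00 by its other probe. Without 90-week replicate 1 limma called 1 of the 5 lower.

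Marker genes of blood differed as well. The 8 measured red blood cell genes, of 14 listed, summed to 121, 448 and 482 at 10 weeks and 1040, 1670 and 1170 at 90 weeks, with a median change of 2.13 (1.40 without 10-week replicate 1). Alas2, which starts haem synthesis in red cell precursors, rose from -2.34, 0.02 and 0.25 to 2.63, 3.45 and 2.89 (adjusted p = 0.0433), and the brightest probe, of Hba-a1 (alpha globin), read 5.27, 7.57 and 7.71 against 8.79, 9.44 and 8.91 (adjusted p = 0.11). Old lungs had more globin signal than each young lung, and 10-week replicate 1 had the least. Alas2 was the 1 call of this list, against 2.72% of all entries. Ahsp and Epb42 were among the genes not measured. The part that liver, adipose, heart, airway or blood RNA plays in the results below was not tested.

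**Figure D1:**
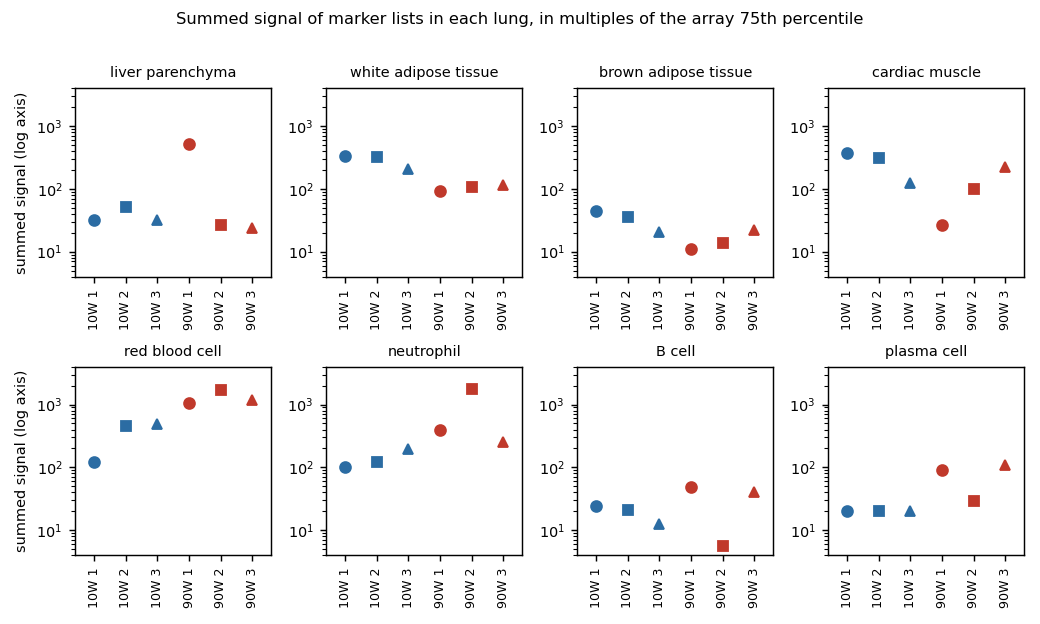
Summed signal of 8 marker lists in each lung on a log axis, in multiples of the 75th percentile of the array, with 10-week lungs in blue and 90-week lungs in red. The liver sum was 513 in 90-week replicate 1 and at most 50.8 elsewhere, the white adipose sum was 205 or more in every young lung and 113 or less in every old one, and in 90-week replicate 2 neutrophil genes were highest and B cell genes lowest.

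Over 30327 entries (17762 with a gene symbol, the others by the name of their probe target) limma called 825 higher and 875 lower at 90 weeks, which is 2.72% and 2.89%, at an adjusted p under 0.05. Of the calls 48.5% were higher. With another background correction (normexp) 60.3% were higher, of 756 higher and 498 lower, and after quantile normalization 51.5%, of 852 and 803. Entries whose 3 old lungs all lay above the 3 young ones made up 11.6%, and those all below made up 24.2%. These shares, and the 2.72% and 2.89% called, are the baseline for the counts in each list. At an unadjusted p under 0.05 far more entries pass. Limma on the mean of a gene's probes then had 2807 higher and 5296 lower of 30327, and after quantile normalization 3072 and 5061. Counts of list members at an unadjusted p, above and below, are to be read against these. A few such members do not set a list apart. The median change of all entries was -0.08. Of the entries with a symbol 580 rose and 611 fell, and of 364 called genes with several probes all probes moved 1 way for 342. The calls rest on the young lungs: leaving out 10-week replicate 1 left 1 higher and 1 lower (Hs3st4 and Lrmda, the latter chosen after its values were seen), leaving out replicate 2 left 16 and 8, and leaving out replicate 3 left 142 and 76. Every call named here other than those 2 is thus lost without 10-week replicate 1. Without 90-week replicate 1, 2 or 3 the counts were 737 and 905, 1088 and 746, and 561 and 506. An exact two-sided permutation test of 3 lungs against 3 cannot give a p below 0.1. Leaving out all entries at least 8-fold brighter in young liver or WAT than in young lung left 753 higher and 787 lower of 28696. With no filter on dim probes 304 and 136 were called, and by the methods' t-test after adjustment 99 and 132. With no filter the calls in the cytotoxic lymphocyte, replication, interferon, type 2 and fibroblast lists given below went from 6, 9, 7, 5 and 4 to 3, 2, 2, 1 and 1, and the 5 in the collagen list were lost.

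**Figure D2:**
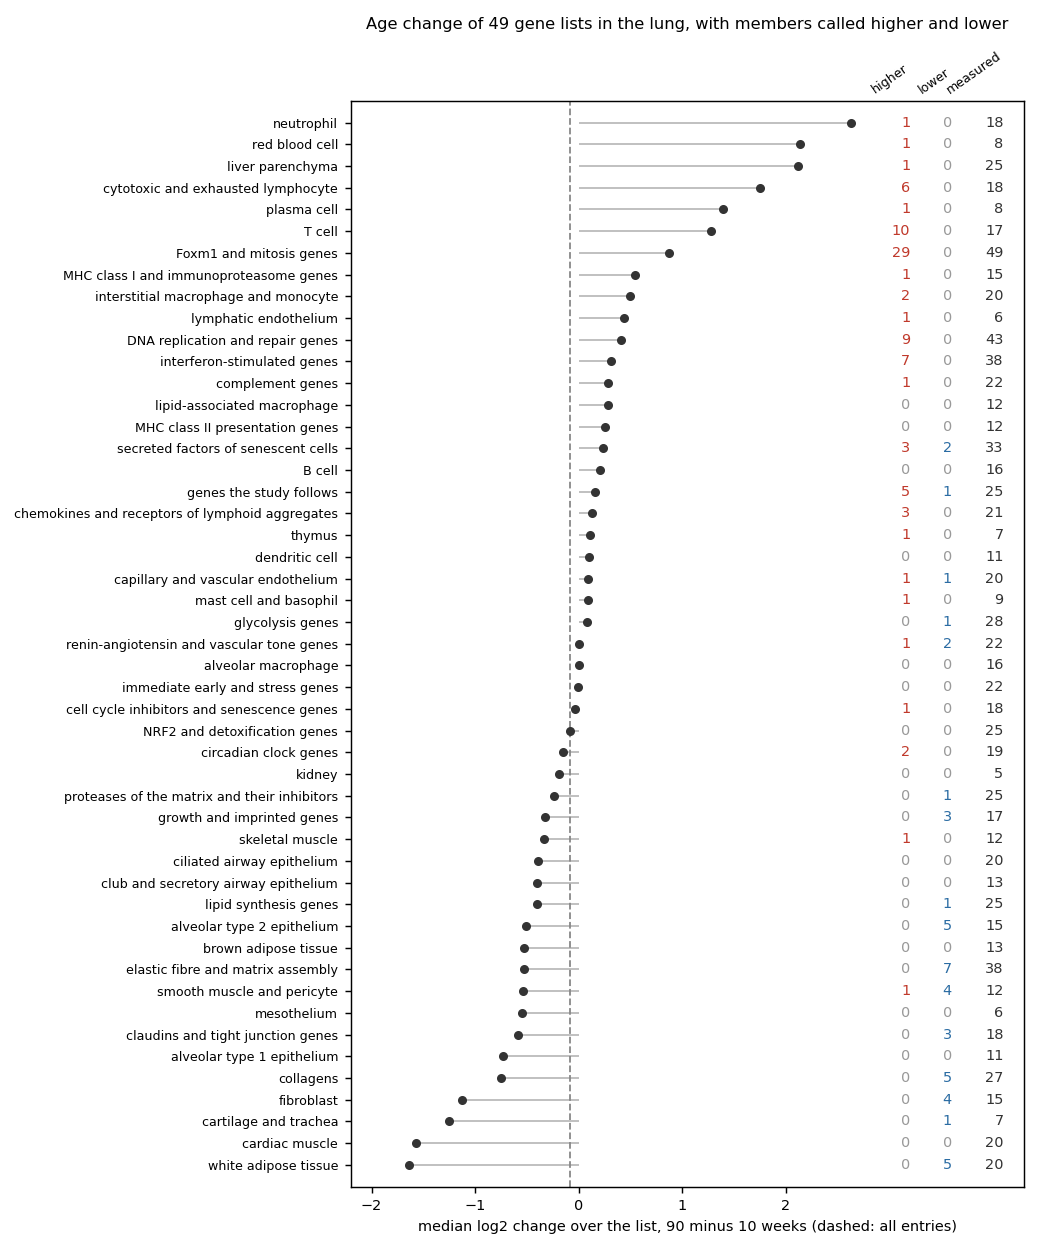
Median log2 change from 10 to 90 weeks for each of 49 gene lists, with the dashed line at the median of all entries (-0.08) and the numbers of members called higher, called lower and measured at the right. Neutrophil, red cell, liver, cytotoxic lymphocyte, plasma cell and T cell lists lie farthest to the right and white adipose, cardiac, cartilage, fibroblast and collagen lists farthest to the left.

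Among the 10 genes with the largest rise that passed the test, with all old arrays well above background, several are known from immune cells, which was not tested as a theme. Prg2, the major basic protein of eosinophil granules, read -5.16, -5.15 and -4.56 at 10 weeks and 0.32, 2.43 and 0.41 at 90 weeks, a rise of 6.01 (adjusted p = 0.0117). Rgs1, which turns down chemokine receptor signalling in lymphocytes, went from -3.17, -3.04 and -3.18 to -0.25, 2.0 and 0.60, a rise of 3.91 (adjusted p = 0.0211). Mcpt8, a protease of basophils, went from -6.09, -5.78 and -5.33 to -1.07, -0.64 and -3.08, a rise (adjusted p = 0.0268) whose size is uncertain, since the probe was well above background in 1 young lung. For all 3 genes each old lung was far above each young lung, and 90-week replicate 2 was the highest. Csprs, named as a component of the Sp100-rs repeat, rose by 4.35, from -2.38, -2.26 and -2.23 to 1.99, 1.61 and 2.57 (adjusted p = 0.00595). Apol11b, of the apolipoprotein L family, rose by 4.46, from -5.50, -5.42 and -6.01 to -1.86, -0.54 and -1.17 (adjusted p = 0.0106). Its probe was well above background in 2 young lungs, so the size of this rise is uncertain. Hs3st4, an enzyme that sulphates heparan chains, was dim in every young lung and was at least 2.99-fold higher (adjusted p = 0.00206), and Sult2a6, a sulphotransferase of sterols and bile acids, was at least 7.23-fold higher (adjusted p = 0.0451). The others were Ngp, Pdcd1 and Tigit, which are given with their cell types.

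Among the 10 largest falls that passed the test most probes were well above background in 1 old lung or none, so sizes and ranks there rest on values near background. Cldn22, a claudin of tight junctions, went from -0.07, -0.55 and -1.18 to -6.82, -7.06 and -3.74, a change of -5.27 (adjusted p = 0.0338). Krt15, a keratin of basal cells in stratified and airway epithelium, went from -1.68, -0.54 and -1.22 to -5.83, -6.88 and -5.69, a change of -4.98 (adjusted p = 0.0106). Slc5a8, a carrier of lactate and short fatty acids in epithelium, went from -3.47, -2.83 and -3.46 to -7.04, -7.85 and -5.48, a change of -3.54 (adjusted p = 0.0323). All 3 were detected in every young lung and in 1 old lung each, with 90-week replicate 3 the nearest to the young for Cldn22 and Slc5a8. Ern2, a sensor of unfolded protein in mucous cells, changed by -3.47 by its brightest probe and by -1.03 by its other probe, with the old lungs at -6.44, -5.13 and -3.54 against -1.32, -1.51 and -1.87 (adjusted p = 0.0489). Vat1l was at least 5.9-fold lower (adjusted p = 0.0109), and the noncoding A530016L24Rik at least 4.72-fold lower (adjusted p = 0.024). The transcript 4933409K07Rik fell by 4.40, from -1.80, -1.42 and -1.63 to -6.66, -5.00 and -6.38 (adjusted p = 0.0118). Plin1, Acvr1c and Retn of the adipose list were the remaining members.

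The summed signal of T cell genes was higher in every old lung. Of 17 measured T cell genes 10 rose, against 2.72% of all entries, and 15 had old lungs that all lay above the young ones, against 11.6%. The list had a median change of 1.28. Cd3g, a chain of the T cell receptor complex, read -0.84, -0.70 and -1.20 at 10 weeks and 0.71, 1.68 and 1.02 at 90 weeks, a rise of 2.05 (adjusted p = 0.0201). Cd28, the costimulatory receptor, read -1.87, -1.92 and -2.05 against -0.31, 0.32 and 0.06, a rise of 1.97 (adjusted p = 0.0106). Both genes had their highest value in 90-week replicate 2, and the young lungs varied little. The member with the highest mean signal was Cd247, the zeta chain (change 0.60, adjusted p = 0.0624). Summed over the list the signal was 24.5, 27.3 and 23.1 at 10 weeks and 44.4, 63.9 and 52.6 at 90 weeks. Lef1, a factor of naive T cells and other lineages, was the member with a negative change, -0.45 (adjusted p = 0.0505; chosen after its values were seen). Bulk RNA cannot tell more cells of a type from more RNA per cell, here or in the lists that follow. The number of called members was 0, 0 and 2 without 10-week replicate 1, 2 or 3, and 11, 10 and 6 without 90-week replicate 1, 2 or 3. It was 5 with no filter on dim probes and 1 by the methods' t-test after adjustment.

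Genes of cytotoxic and exhausted lymphocytes had a median change of 1.75, and all 18 had a positive change. Of these 6 rose, against 2.72% of all entries: Tigit, Pdcd1, Lag3, Ccl4, Tox and Eomes. Pdcd1, the inhibitory receptor PD-1, read -4.03, -4.49 and -3.61 in the young and -0.75, 0.45 and -0.26 in the old lungs, a rise of 3.86 (adjusted p = 0.0109). Tigit, another inhibitory receptor, was dim in every young lung (-8.06, -8.22 and -7.56) and read -3.16, -1.35 and -2.95 in the old ones, at least 10.2-fold higher (adjusted p = 0.0107). For both, the old lungs stood clear of the young and 90-week replicate 2 was the highest. The brightest probe was that of Ccl5, a chemokine of memory T cells, at 3.12, 4.25 and 2.80 against 4.96, 6.86 and 5.36 (adjusted p = 0.0795). The sum of the list was 28.1, 55.5 and 21.3 at 10 weeks and 59.5, 200 and 65.5 at 90 weeks, so that 10-week replicate 2 came near the old lungs and 90-week replicate 2 had more than 3 times the other old sums. The count of 6 became 0, 0 and 2 without 10-week replicate 1, 2 or 3, and 6, 5 and 3 without 90-week replicate 1, 2 or 3.

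Of 21 measured chemokines and receptors of lymphoid aggregates 3 rose, against 2.72% of all entries, and the median change was 0.13. It was 0.24 and 0.22 without 10-week replicate 1 or 3, and 0.08, 0.75 and 0.00 without 90-week replicate 1, 2 or 3. Cxcr3, the receptor of effector T cells for interferon-induced chemokines, read -1.43, -1.25 and -1.65 at 10 weeks and 1.03, 1.40 and 1.31 at 90 weeks, a rise of 2.69 (adjusted p = 0.00595). Cxcr6, a receptor of tissue-resident T cells, read -0.15, -0.08 and -0.52 against 1.51, 2.27 and 1.75, a rise of 2.09 (adjusted p = 0.0134). Cxcr4, the receptor for Cxcl12, read 0.26, 0.25 and 0.43 against 1.14, 1.09 and 1.13, a rise of 0.80 (adjusted p = 0.0147). The 3 receptors separated the ages without overlap, and for Cxcr4 the old lungs were nearly equal. Cxcl12, the member with the highest mean signal, had a change of 0.13 (adjusted p = 0.576). The count of 3 became 0, 1 and 2 without 10-week replicate 1, 2 or 3, and 3, 6 and 3 without 90-week replicate 1, 2 or 3.

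B cell genes split the old lungs. The 16 measured genes summed to 24.6, 21.2 and 12.6 at 10 weeks, 49.2 and 40.6 in 90-week replicates 1 and 3, and 5.53 in 90-week replicate 2. Cd79b, a chain of the B cell receptor, followed this with 3.33, 3.12 and 2.42 against 4.17, 1.20 and 3.81 (adjusted p = 0.946). Old lungs thus held both the highest and the lowest values. Limma called none of the 16 (2 higher at an unadjusted p under 0.05) and the median was 0.20, whereas without 90-week replicate 2 it called 5 higher, with a median of 1.38. Without 90-week replicate 1 or 3 the median was -0.44 or -0.25, and without 10-week replicate 1 or 3 it was 0.45 or -0.04. Ighm and Ighd were not measured.

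Plasma cell genes had a median change of 1.39 over 8 measured members of 12, and summed to 20.1, 20 and 20.4 in the young lungs and 90.4, 28.9 and 111 in the old ones. Of the 8 genes 1 rose, against 2.72% of all entries. It was Eaf2, an elongation factor partner raised in plasma cells, from 3.33, 3.39 and 3.37 to 4.55, 4.46 and 4.81 (adjusted p = 0.0107). Its 3 old values were alike, while the list as a whole was lower in 90-week replicate 2 than in the other old lungs. Without that lung 6 of 8 were called higher and the median was 2.42, and without 90-week replicate 3 it was 0.89. No tested entry carried the symbols Ighg1, Igha, Igkc or Iglc2 of antibody constant regions, which does not show that the array lacks such probes. Of 7 measured thymus genes of 12, with Rag1, Rag2 and Ptcra not measured, 1 rose, against 2.72% of all entries. It was Themis, a signalling protein of the T cell lineage, from -5.19, -5.21 and -6.03 to -3.42, -2.52 and -3.47 (adjusted p = 0.024). The thymus list had a median of 0.11 (-0.03 without 90-week replicate 1, 0.28 without replicate 3) and a sum of 3.73, 3.66 and 3.15 against 3.77, 3.28 and 3.6, and Cd1d1, which presents lipids, had its highest mean signal (change -0.25, adjusted p = 0.544).

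**Figure D3:**
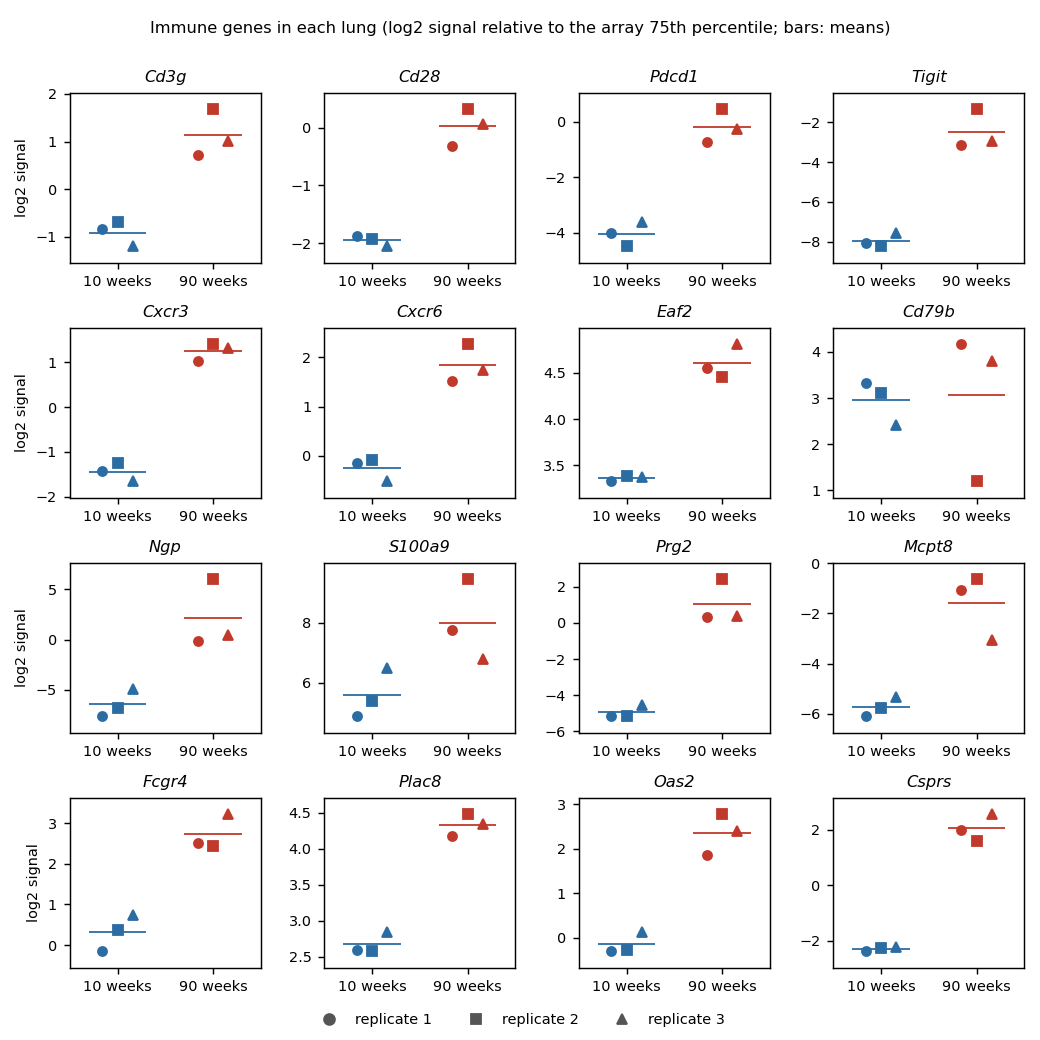
Log2 signal of 16 immune genes in each lung, relative to the 75th percentile of the array, with 1 marker per animal and a bar at the mean of each age. Receptors of T cells (Cd3g, Cd28, Cxcr3, Cxcr6) separated the ages, with Cxcr3 at -1.65 to -1.25 against 1.03 to 1.40, while Cd79b of B cells ran from 1.20 to 4.17 within the old lungs.

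Neutrophil genes had the highest median change of the 49 lists, 2.63 over 18 measured genes of 20. Of these 1 passed the test, against 2.72% of all entries. Their sum was 101, 120 and 196 at 10 weeks and 390, 1780 and 249 at 90 weeks, so that every old lung was above every young lung and 90-week replicate 2 was far above all others. Ngp, a protein of neutrophil secondary granules, read -7.63, -6.82 and -4.96 against -0.12, 6.02 and 0.47, a rise (adjusted p = 0.0483) whose size was not measured, since the probe was well above background in 1 young lung. S100a9, a calcium-binding protein that fills the neutrophil cytoplasm and the brightest probe of the list, read 4.89, 5.38 and 6.50 against 7.77, 9.45 and 6.78 (adjusted p = 0.114). The gap between ages for S100a9 was small, 6.50 against 6.78 at the nearest. Without 90-week replicate 2 the median was 1.67 and 5 members were called higher. The median was 3.49 without 90-week replicate 3, when none was called. Without any 1 young lung limma called none (the methods' t-test after adjustment called none with all 6 lungs either), and the median lay between 2.45 and 3.12. Ly6g and Fcnb were not measured.

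Mast cell and basophil genes gave 1 rise in 9, that of Mcpt8, against 2.72% of all entries, and a median of 0.09. The median was 0.02, 0.20 and 0.04 without 10-week replicate 1, 2 or 3, when none was called. It was 0.18, -0.02 and 0.45 without 90-week replicate 1, 2 or 3. Gata2, a transcription factor of mast cells that endothelium also makes, read 3.78, 4.13 and 3.81 against 3.80, 4.21 and 3.97 (adjusted p = 0.743). The young and old lungs overlapped for Gata2, while the basophil protease separated them.

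Limma called none of 16 alveolar macrophage genes (1 higher and 2 lower at an unadjusted p under 0.05), and their median was -0.00 (0.25 without 90-week replicate 2, -0.23 without replicate 3). Chil3, a chitinase-like protein of alveolar macrophages, read 6.80, 6.92 and 7.25 against 7.11, 7.88 and 7.72 (adjusted p = 0.182), with overlap between the ages. Among 20 genes of interstitial macrophages and monocytes the median change was 0.49 (1.1 without 90-week replicate 2, 0.10 without replicate 3) and 2 rose, against 2.72% of all entries. Fcgr4, an activating antibody receptor of patrolling monocytes, rose from -0.15, 0.37 and 0.74 to 2.5, 2.44 and 3.22 (change 2.40, adjusted p = 0.0179). Plac8, a protein of monocytes and lymphocytes, rose from 2.59, 2.58 and 2.85 to 4.18, 4.48 and 4.34 (change 1.66, adjusted p = 0.0106). Both separated the ages by more than 1 log2 unit. Ly6c2, the classical monocyte marker with the highest mean signal of the list, had a change of 0.50 (adjusted p = 0.336).

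Genes of lipid-associated macrophages had a median of 0.28 over 12 members, none of them called by limma, with 4 higher and 3 lower at an unadjusted p under 0.05. Ctsd, a lysosomal protease with the highest mean signal there, read 5.72, 5.82 and 6.03 against 6.16, 6.24 and 6.81 (adjusted p = 0.152). Its old values all lay above its young ones, by a small margin. Without 90-week replicate 2 limma called 3 of these genes higher, with a median of 0.02, and without replicate 1 the median was 0.51. Dendritic cell genes, 11 measured of 12, had a median of 0.10 and none called (1 lower at an unadjusted p under 0.05). Siglech, known from plasmacytoid dendritic cells, read 6.13, 6.22 and 6.04 against 6.25, 6.43 and 6.01 by its brightest probe (adjusted p = 0.652). Its other probe changed with the opposite sign. The brightest probe read 6.90, 6.75 and 6.94 in young liver, above young lung, so it is no clear readout of these cells. Xcr1 was not measured. Without 90-week replicate 2 limma called 3 dendritic cell genes higher.

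The summed signal of mitosis genes was higher in all 3 old lungs. Of 49 measured Foxm1 and mitosis genes 29 rose, against 2.72% of all entries. For 37 the old lungs all lay above the young ones, against 11.6% of entries, and the median change was 0.87. Summed signal was 17.3, 17.5 and 17.5 at 10 weeks, which is nearly the same in the 3 young lungs, and 26.3, 36 and 31.8 at 90 weeks. Ncapg, a condensin subunit that compacts mitotic chromosomes, read -3.15, -3.37 and -3.19 against -1.65, -1.36 and -1.38, a rise of 1.77 (adjusted p = 0.00855). Mki67, the coat protein of mitotic chromosomes used to count dividing cells, read -0.30, -0.26 and -0.42 against 0.86, 1.52 and 1.08, a rise of 1.48 (adjusted p = 0.0166). For both, the young lungs lay within 0.3 log2 units of each other and the lowest old lung was well above them. Birc5 (survivin), the member with the highest mean signal, rose by 1.27 (adjusted p = 0.0262). Foxm1 itself, the transcription factor of the G2 and M phases, rose by 0.94, from -2.75, -2.39 and -2.52 to -1.78, -1.46 and -1.62 (adjusted p = 0.024). The count of 29 became 0, 0 and 5 without 10-week replicate 1, 2 or 3, and 34, 28 and 12 without 90-week replicate 1, 2 or 3, while the median stayed between 0.84 and 0.98. The count was 4 with 1 fit of all 24 arrays, 4 by the methods' t-test after adjustment and 10 with no filter on dim probes.

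Of 43 measured DNA replication and repair genes 9 rose, against 2.72% of all entries. For 26 the old lungs all lay above the young ones, against 11.6% of entries, and the median change was 0.41. Mcm10, which opens replication origins, read -3.13, -2.54 and -3.06 against -1.29, -1.89 and -1.68, a rise of 1.29 (adjusted p = 0.0338). Ccne1, the cyclin that drives entry into S phase, read -1.87, -1.63 and -1.52 against -0.44, -0.69 and -0.18, a rise of 1.24 (adjusted p = 0.0196). Pcna, the sliding clamp and the brightest probe, read 3.52, 3.56 and 3.72 against 3.53, 3.68 and 3.83 (adjusted p = 0.68). The ages separated for the first 2 and overlapped for Pcna. The count of 9 became 0 without 10-week replicate 1, 2 or 3, when it was 8, 11 and 5 without 90-week replicate 1, 2 or 3.

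**Figure D4:**
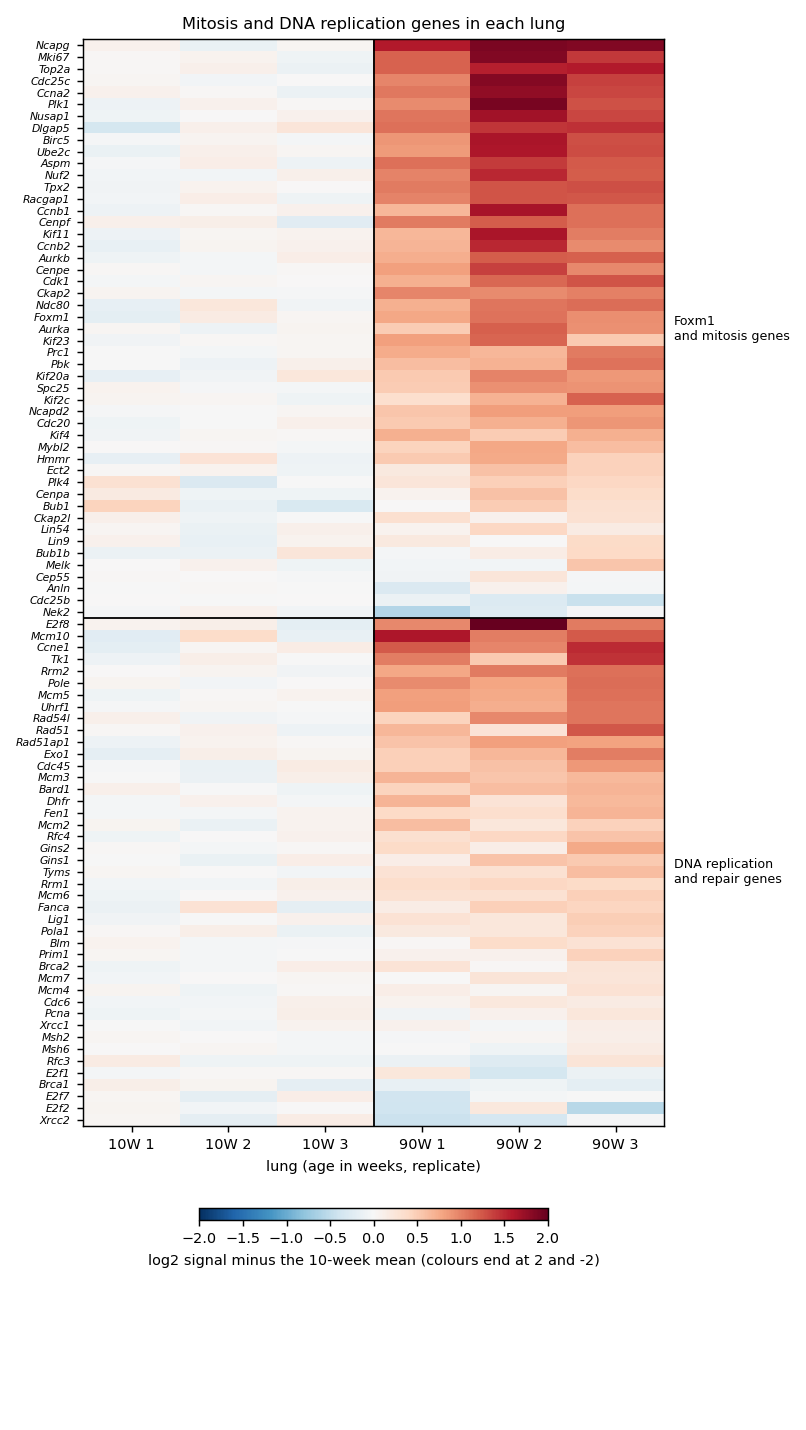
Log2 signal of each mitosis and DNA replication gene in each lung minus its 10-week mean, with colours that end at 2 and -2. Red fills the 90-week columns for the upper part of each list, from Ncapg (mean change 1.77) downwards, and the 3 young columns stay pale.

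Promoters of the mitosis genes that rose are shown because these genes moved together and because the cell cycle element TTTGAA and the CCAAT box are known parts of such promoters. In the RefSeq table of assembly GRCm38.p6, with 300 bases around each gene start, 22 of the 29 genes were found, with 23 promoters. With both strands searched (the reverse of TTTGAA reads TTCAAA and that of CCAAT reads ATTGG), 18 of the 23, or 78.3%, held TTTGAA and 18, or 78.3%, held CCAAT, and 17, or 73.9%, held both. Of all 32851 promoters of that assembly, 17.9% held TTTGAA, 37.4% held CCAAT and 6.95% held both. The other 18 matched members of the list, with 21 promoters, gave 71.4%, 66.7% and 47.6%, so members that did not pass the test carried the motifs too. A match is a description of letters and shows no binding. The list was made of mitosis genes, whose promoters are known to carry these motifs. Its higher shares than those of all promoters therefore follow from the choice of list and cannot tie the motifs to age. All 4 promoters shown here hold both motifs, so they are examples and no fair sample of the 23. Capitals mark the motifs in these 4 promoters, which are those of Ncapg (chr5:45669675-45669974, plus strand), Mki67 (chr7:135716330-135716629, minus strand), Top2a (chr11:99024140-99024439, minus strand) and Plk1 (chr7:122159185-122159484, plus strand; chosen after its values were seen), each 5′ to 3′ along the gene.
Ncapg: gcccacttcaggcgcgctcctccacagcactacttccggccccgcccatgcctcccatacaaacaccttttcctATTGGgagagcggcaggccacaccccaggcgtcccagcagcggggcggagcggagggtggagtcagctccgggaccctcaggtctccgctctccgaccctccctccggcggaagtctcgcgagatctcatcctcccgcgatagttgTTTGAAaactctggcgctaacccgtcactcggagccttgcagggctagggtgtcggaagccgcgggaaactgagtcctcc
Mki67: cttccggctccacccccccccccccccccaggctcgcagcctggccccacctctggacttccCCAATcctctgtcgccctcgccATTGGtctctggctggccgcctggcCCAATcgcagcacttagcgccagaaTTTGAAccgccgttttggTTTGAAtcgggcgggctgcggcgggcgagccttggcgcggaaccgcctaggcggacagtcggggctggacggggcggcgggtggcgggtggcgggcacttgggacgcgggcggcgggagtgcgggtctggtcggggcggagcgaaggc
Top2a: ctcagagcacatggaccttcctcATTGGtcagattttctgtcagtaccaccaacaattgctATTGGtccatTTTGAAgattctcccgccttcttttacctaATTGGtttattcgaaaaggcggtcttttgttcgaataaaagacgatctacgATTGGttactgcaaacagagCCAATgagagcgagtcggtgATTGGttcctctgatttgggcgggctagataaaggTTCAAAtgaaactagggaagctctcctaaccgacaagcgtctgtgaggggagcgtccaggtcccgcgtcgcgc
Plk1: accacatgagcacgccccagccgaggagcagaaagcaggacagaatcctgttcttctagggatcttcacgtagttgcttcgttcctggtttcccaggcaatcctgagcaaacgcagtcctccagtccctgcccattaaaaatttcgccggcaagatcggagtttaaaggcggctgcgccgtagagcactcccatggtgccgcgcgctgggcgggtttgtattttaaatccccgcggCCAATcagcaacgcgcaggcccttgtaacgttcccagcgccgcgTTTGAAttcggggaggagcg

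Top2a, which untangles DNA before division, read -1.12, -1.04 and -1.26 at 10 weeks and 0.04, 0.42 and 0.44 at 90 weeks (change 1.44, adjusted p = 0.0117), and Plk1, a kinase of mitotic entry, changed by 1.37 (adjusted p = 0.0362).

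Cell cycle inhibitors and senescence genes had a median of -0.04 over 18 members (0.01 after quantile normalization) and 1 rise, against 2.72% of all entries. The median lay between -0.11 and 0.05 without 1 lung. The rise became 0, 0 and 1 without 10-week replicate 1, 2 or 3. Without 90-week replicate 1 limma called 1 higher and 1 lower, and without replicate 2 it called 3 higher. Cdkn2a, which encodes the inhibitors p16 and p19, read -3.81, -3.55 and -3.56 against -2.21, -1.84 and -1.74, a rise of 1.71 (adjusted p = 0.0107). Ccnd2, a D-type cyclin that pairs with the kinases these inhibitors block and the member with the highest mean signal, read 5.00, 4.96 and 4.99 against 4.74, 4.57 and 4.81 (adjusted p = 0.145). Cdkn2a thus rose in every old lung alongside the mitosis genes. Cdkn1a, the inhibitor p21, read 2.11, 2.91 and 2.68 against 1.96, 3.44 and 3.32 (adjusted p = 0.647), and the ages overlapped.

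Secreted factors of senescent cells went both ways, with 3 rises and 2 falls in 33 measured genes of 35, against 2.72% and 2.89% of all entries. Their median was 0.23 (-0.03 without 90-week replicate 3). Ccl3, a chemokine of macrophages and T cells, rose from -2.73, -2.27 and -3.16 to -0.92, -0.52 and -0.56 (change 2.05, adjusted p = 0.0159). Ccl4, its close relative, rose from -1.89, -1.61 and -2.58 to -0.81, 0.47 and 0.16 (change 1.97, adjusted p = 0.0493). Igfbp3, which binds insulin-like growth factors, fell from 3.69, 3.70 and 3.40 to 1.5, 2.26 and 1.81 (change -1.74, adjusted p = 0.0167). These genes separated the ages, with the chemokines higher and the binding protein lower in each old lung. Il1b, an inflammatory cytokine, rose by 1.95. Csf2, the growth factor that alveolar macrophages need, fell by 0.69, from -1.53, -1.49 and -1.78 to -2.27, -2.15 and -2.44 (adjusted p = 0.0386). Il6 and Cxcl1 were highest in 10-week replicate 1, at -1.5 against -5.17 and -4.78, and at 0.00 against -2.40 and -2.53 (adjusted p = 0.773 and 0.886 for age), and the old lungs spread from -5.33 to -3.49 and from -2.79 to -0.48. Tnf read -2.73, -2.48 and -2.54 against -2.07, -2.59 and -1.48 (adjusted p = 0.27). The brightest probe was that of Igfbp7, a protein of vessel walls, with a change of -0.58 (adjusted p = 0.0581). The 3 rises and 2 falls became 0 and 0 without 10-week replicate 1 or 2, 1 and 0 without replicate 3, and 2 and 2, 6 and 4, and 1 and 1 without 90-week replicate 1, 2 or 3.

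Genes of alveolar type 2 cells fell in part. Of 15 measured type 2 genes 5 fell, against 2.89% of all entries: Cxcl15, Nkx2-1, Slc34a2, Lamp3 and Abca3. The list had a median of -0.51 and, over the list, changes from -1.41 to 0.17. Cxcl15 (lungkine), a chemokine made by lung epithelium, read 4.98, 4.87 and 4.78 at 10 weeks and 3.71, 3.48 and 3.21 at 90 weeks, a change of -1.41 (adjusted p = 0.0131). Nkx2-1, the transcription factor of lung epithelial identity, read 3.0, 2.75 and 2.92 against 2.31, 2.29 and 1.97, a change of -0.70 (adjusted p = 0.0417). For Cxcl15, and for Nkx2-1 by this probe, every old lung lay below every young lung. The other, dimmer probe of Nkx2-1 read -0.45, -0.57 and -0.27 against -0.89, -0.47 and -0.83, with an overlap and a change of -0.30. Sftpc, the brightest probe, had a change of 0.17 (adjusted p = 0.55), and the sum of the list was 2190, 2160 and 2280 against 1920, 2740 and 2030. The count of 5 became 0 without any 1 young lung, and 4, 1 and 1 without 90-week replicate 1, 2 or 3.

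Alveolar type 1 genes were lowest in a single old lung. The 11 measured genes of 12 summed to 861, 839 and 818 at 10 weeks and 719, 667 and 315 at 90 weeks, so that 90-week replicate 3 held far less than any other lung. Limma called none, with 5 lower at an unadjusted p under 0.05. The median change was -0.73, and 9 of 11 had old lungs that all lay below the young ones, against 24.2% of entries. Ager had a change of -0.53 (adjusted p = 0.364). The median was -0.39 without 90-week replicate 3, and -0.99 without replicate 1, when limma called 1 lower.

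Some secretory airway genes were much lower in 2 old lungs. Limma called none of the 13, with 6 lower at an unadjusted p under 0.05, and the median was -0.40 (-0.22 without 90-week replicate 1, -0.74 without replicate 2). Scgb3a1, a secretoglobin of the large airways, read 7.91, 7.89 and 7.75 at 10 weeks and 0.05, 2.27 and 6.50 at 90 weeks (adjusted p = 0.116). Bpifa1 and Bpifb1, antimicrobial proteins of the upper airway chosen after their values were seen, read 0.28 and -3.90 in 90-week replicate 1, 0.65 and -1.61 in replicate 2, and 4.51 and 3.37 in replicate 3, against at least 6.48 and 5.63 in the young lungs (adjusted p = 0.063 and 0.0907). Replicate 3 was thus the old lung nearest to the young, and without it limma called 5 members lower. Scgb1a1 and Cyp2f2, the club cell markers of small airways, overlapped between the ages (changes of 0.16 and 0.01, adjusted p = 0.603 and 0.966). How much large airway each sample held was not tested.

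Ciliated cell genes had a median of -0.39 over 20 members (-0.12 without 90-week replicate 1), with 19 changes negative, none called by limma and 4 lower at an unadjusted p under 0.05. Tppp3, a tubulin-binding protein of cilia, read 6.95, 7.04 and 6.89 against 6.18, 6.56 and 6.60 (adjusted p = 0.0852). All old lungs lay below the young ones, and 90-week replicate 1 was lowest. The ciliated sum in that lung was 144, against 213 in each of the other old lungs and 231 to 277 in the young. Mesothelium, the outer covering, had 6 genes with negative changes and a median of -0.55, none called by limma and 4 lower at an unadjusted p under 0.05, and Krt19 read 4.43, 4.57 and 4.72 against 4.15, 4.11 and 3.99 (adjusted p = 0.0622). The methods' t-test after adjustment called none in the type 1, secretory, ciliated and mesothelial lists either.

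Of 18 tight junction genes 17 had negative changes, with a median of -0.59. The old lungs all lay below the young ones for 13, against 24.2% of entries, and 3 genes fell, against 2.89%. Besides Cldn22 these were Cldn7, a claudin of airway and alveolar epithelium, from 3.53, 3.43 and 3.47 to 2.49, 2.59 and 2.86 (change -0.83, adjusted p = 0.0236), and Cldn23, from -0.55, -0.83 and -0.88 to -1.60, -1.28 and -1.49 (change -0.70, adjusted p = 0.0445). Cldn5, the claudin of endothelium and the brightest probe, read 6.10, 5.92 and 6.14 against 6.09, 6.82 and 6.32 (adjusted p = 0.3). The epithelial claudins named here were lower in each old lung, whereas the endothelial claudin overlapped. The count of 3 became 0 without any 1 young lung, and 4, 2 and 3 without 90-week replicate 1, 2 or 3.

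Endothelial genes gave 1 rise and 1 fall in 20, against 2.72% and 2.89% of all entries, with a median of 0.09 (0.15 without 10-week replicate 1 or 90-week replicate 3). Without 90-week replicate 2 limma called 1 higher and 3 lower, and without replicate 3 it called 1 higher. Vwf, the clotting factor stored in endothelium of larger vessels, read 5.37, 5.18 and 5.37 at 10 weeks and 6.64, 7.59 and 6.82 at 90 weeks, a rise of 1.71 (adjusted p = 0.0245). Ednrb, the endothelin B receptor of an alveolar capillary type, read 1.44, 1.45 and 1.5 against 0.57, 0.91 and 0.19, a change of -0.91 (adjusted p = 0.0497). The old lungs lay clear of the young for both, in opposite directions. Ramp2, a receptor partner in capillaries and the brightest probe, read 7.20, 7.22 and 7.35 against 7.32, 7.95 and 7.45 (adjusted p = 0.3). In the lymphatic list, of 6 genes with a median of 0.44, Reln, a secreted protein of lymphatic vessels, rose from -1.98, -1.93 and -2.28 to -1.31, -0.83 and -1.28 (change 0.92, adjusted p = 0.0408). Reln was the 1 call of this list, against 2.72% of all entries. Lyve1, the hyaluronan receptor with the highest mean signal there, read 3.65, 3.73 and 4.43 against 4.37, 5.09 and 5.13 (adjusted p = 0.119), with a slight overlap.

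Genes of vascular tone gave 1 rise and 2 falls among 22, against 2.72% and 2.89% of all entries, with a median of 0.00. Edn1, the vasoconstrictor endothelin-1, rose from 1.77, 1.60 and 1.83 to 3.09, 3.26 and 2.68 (change 1.27, adjusted p = 0.0194), while its relative Edn3 fell from -3.14, -3.30 and -3.56 to -4.17, -4.59 and -4.73 (change -1.16, adjusted p = 0.0288). The ages did not overlap for either gene. Calcrl, the receptor that works with Ramp2 and the brightest probe of the list, had a change of 0.33 (adjusted p = 0.151). The 1 rise and 2 falls became 0 and 0 without any 1 young lung, and 2 and 1, 1 and 1, and 1 and 0 without 90-week replicate 1, 2 or 3.

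Smooth muscle genes fell in part. Of 12 smooth muscle and pericyte genes 4 fell and 1 rose, against 2.89% and 2.72% of all entries, and the median was -0.54. Cnn1, calponin of smooth muscle, read 4.35, 5.10 and 4.17 at 10 weeks and 2.86, 2.81 and 2.71 at 90 weeks, a change of -1.75 (adjusted p = 0.0221). Lmod1, which nucleates actin in smooth muscle, read -3.29, -2.89 and -3.33 against -4.30, -4.24 and -4.85, a change of -1.29 (adjusted p = 0.0299). Rgs5, a signalling brake of pericytes, went from -1.53, -1.67 and -1.75 to -0.20, -0.49 and 0.17, a rise of 1.48 (adjusted p = 0.0171). Each of the 3 separated the ages by about 1 log2 unit. Acta2, the brightest probe, read 5.23, 5.30 and 5.32 against 5.05, 4.96 and 4.98 (adjusted p = 0.101). The 1 rise and 4 falls became 0 and 0 without any 1 young lung, and 1 and 5, 1 and 2, and 1 and 1 without 90-week replicate 1, 2 or 3.

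Fibroblast genes had a median of -1.13, with 4 falls among 15 measured genes of 16, against 2.89% of all entries. Dpt, dermatopontin of the adventitial matrix, fell from 1.82, 1.78 and 1.62 to 0.10, -0.79 and 0.02 (change -1.96, adjusted p = 0.018). Clec3b, tetranectin, fell from 0.63, 0.93 and 0.56 to -1.16, -1.45 and -0.48 (change -1.74, adjusted p = 0.0251). Pdgfrb, the growth factor receptor of fibroblasts and pericytes, fell from 2.85, 2.71 and 2.56 to 1.90, 1.43 and 1.17 (change -1.20, adjusted p = 0.0325). No old lung reached a young one for these genes. Scara5, a ferritin receptor of adventitial fibroblasts, fell by 1.54 (adjusted p = 0.0485). Inmt, a methyltransferase of alveolar fibroblasts and the brightest probe, read 7.84, 7.82 and 7.83 against 7.56, 8.10 and 7.12 (adjusted p = 0.557), and the ages overlapped. Adventitial fibroblasts lie in the same sheaths as fat around vessels and airways, and adipose signal was also higher in the young lungs, as given above; the link was not tested. The count of 4 became 0 without any 1 young lung, and 3, 2 and 5 without 90-week replicate 1, 2 or 3.

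The summed signal of collagen genes was lower in every old lung. Of 27 measured, with Col6a6 not measured, 5 fell, against 2.89% of all entries: Col5a1, Col6a5, Col6a1, Col6a2 and Col16a1. The median change was -0.75, or -0.68 with dim genes at their bound, and 19 had old lungs that all lay below the young ones, against 24.2% of entries. Summed signal was 161, 167 and 159 at 10 weeks and 112, 75.3 and 80 at 90 weeks. Col5a1, which starts the assembly of collagen fibrils, read 1.44, 1.32 and 1.07 against 0.42, 0.17 and 0.18, a change of -1.02 (adjusted p = 0.0193). Col6a5, a chain of the beaded filaments, was dim in every old lung and at least 1.45-fold lower (adjusted p = 0.0316). Col1a2, a chain of type I collagen and the brightest probe, read 5.26, 5.28 and 5.01 against 4.36, 2.97 and 4.02, and Col3a1 of type III read 4.06, 3.97 and 3.76 against 2.61, 0.21 and 2.04. Both were lowest in 90-week replicate 2, and the spread of the old lungs left them above the threshold (adjusted p = 0.0795 and 0.082). Col5a2 had a change of -0.98 (adjusted p = 0.0796). The count of 5 became 0 without any 1 young lung, and 11, 5 and 2 without 90-week replicate 1, 2 or 3.

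Of 38 measured genes that build elastic fibres and the matrix 33 had negative changes and 7 fell, against 2.89% of all entries. For 21 the old lungs all lay below the young ones, against 24.2% of entries. The median was -0.53, or -0.51 with dim genes at their bound. Postn, periostin of remodelled matrix, read 3.34, 3.37 and 3.40 against 2.71, 1.86 and 2.12, a change of -1.14 (adjusted p = 0.043). Fbn1, fibrillin of the microfibrils that carry elastin, read 0.80, 0.77 and 0.43 against -0.03, -0.34 and -0.40, a change of -0.92 (adjusted p = 0.0316). Eln, elastin itself, read 1.25, 0.79 and 0.85 against 0.54, -0.22 and 0.31 (adjusted p = 0.111). Elastin was lower in each old lung than in each young one. Sparc, a collagen-binding protein and the brightest probe, read 8.26, 8.19 and 8.21 against 8.01, 7.49 and 7.23 (adjusted p = 0.117), and Fn1, fibronectin, read 3.90, 4.03 and 3.72 against 4.34, 4.31 and 3.47 (adjusted p = 0.72). The count of 7 became 0 without any 1 young lung, and 12, 4 and 2 without 90-week replicate 1, 2 or 3. It was 0 with no filter on dim probes, 0 with 1 fit of all 24 arrays (the list had 20 lower by limma at an unadjusted p under 0.05) and 1 by the methods' t-test after adjustment.

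Matrix proteases and their inhibitors gave 1 fall in 25 genes, against 2.89% of all entries, and a median of -0.24 (-0.12 without 10-week replicate 2, -0.04 and -0.12 without 90-week replicate 1 or 2). Without 90-week replicate 1, 2 or 3 the calls were 0 higher and 2 lower, 3 and 1, and 1 and 1. Mmp15, a membrane-bound protease, fell from 1.63, 1.46 and 1.73 to 0.89, 0.85 and 1.04 (change -0.68, adjusted p = 0.029), and Timp2, the inhibitor with the highest mean signal, read 6.92, 6.87 and 6.80 against 6.56, 6.35 and 6.29 (adjusted p = 0.0625). Old and young lungs did not overlap for either gene.

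**Figure D5:**
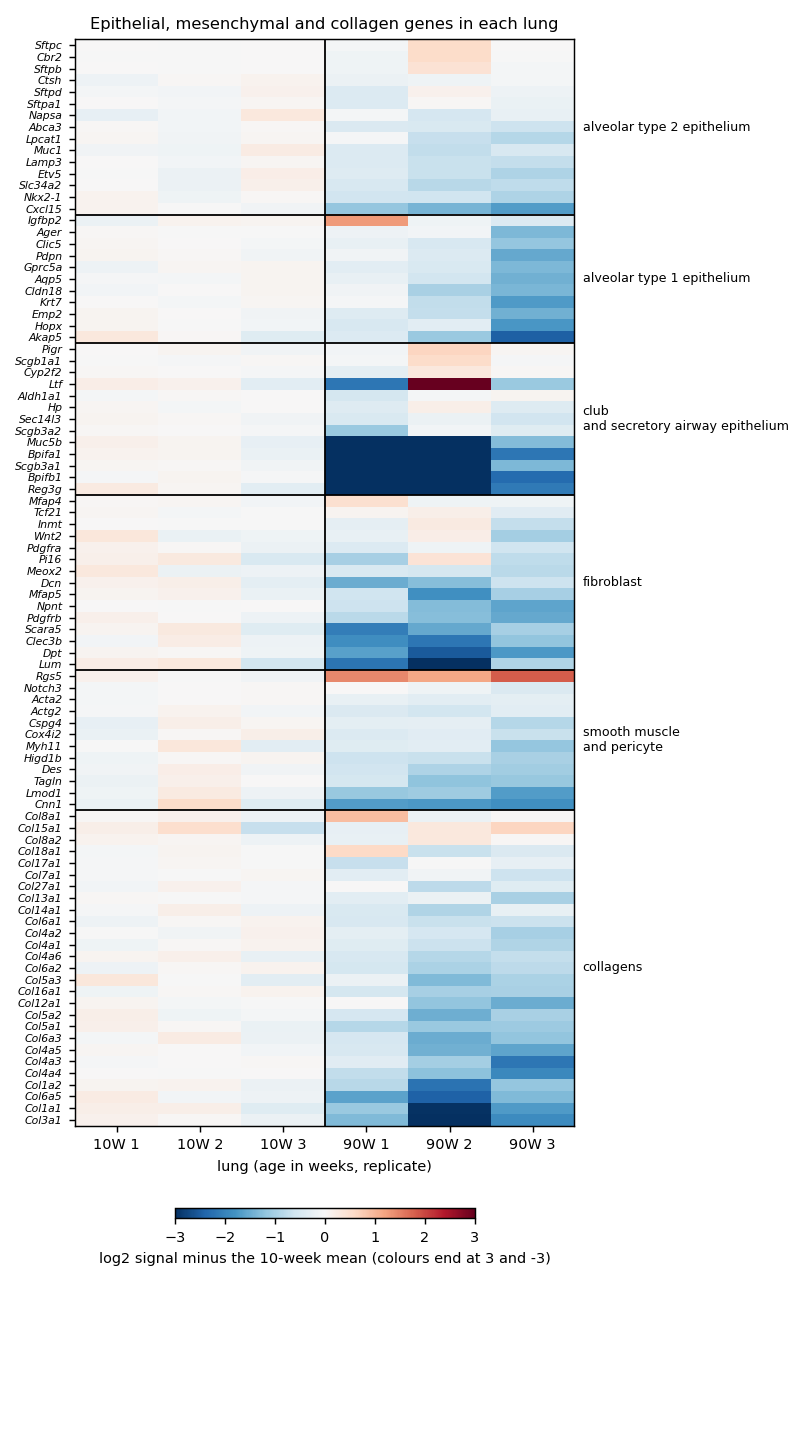
Log2 signal of epithelial, fibroblast, smooth muscle and collagen genes in each lung minus their 10-week mean, with colours that end at 3 and -3. Type 1 genes are bluest in 90-week replicate 3, a group of secretory airway genes in replicates 1 and 2, and collagen genes in all 3 old lungs, with Col3a1 at 2.61, 0.21 and 2.04 against 3.76 to 4.06 in the young.

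Interferon-stimulated genes moved in part. Of 38 measured genes of 42 7 rose, against 2.72% of all entries. For 16 the old lungs all lay above the young ones, against 11.6% of entries, and the median was 0.31. Oas2, which makes the activator of an antiviral RNA nuclease, read -0.30, -0.28 and 0.14 against 1.86, 2.78 and 2.41, a rise of 2.5 (adjusted p = 0.0124). Rsad2 (viperin) read -2.57, -2.19 and -1.96 against -0.82, 0.59 and -0.55, a rise of 1.98 (adjusted p = 0.0457). The old lungs lay well above the young for both, with 90-week replicate 2 the highest. Ifi27, the brightest probe, read 5.27, 5.16 and 5.15 against 5.21, 5.43 and 4.88 (adjusted p = 0.948), with overlap between the ages. The count of 7 became 0, 0 and 1 without 10-week replicate 1, 2 or 3, and 5, 7 and 2 without 90-week replicate 1, 2 or 3.

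MHC class I and immunoproteasome genes all had positive changes, 15 of 17 measured, with a median of 0.54. The old lungs all lay above the young ones for 10, against 11.6% of entries, and 1 rose, against 2.72%. H2-D1, a class I heavy chain, rose from 6.48, 6.76 and 6.67 to 7.09, 7.27 and 7.37 (change 0.60, adjusted p = 0.0484), and H2-K1, the brightest probe, read 7.31, 7.57 and 7.21 against 7.69, 8.03 and 8.07 (adjusted p = 0.0863). Each old lung was above each young lung for both chains. Class II presentation genes followed the B cell pattern instead, with H2-Ab1 at 6.92, 7.27 and 6.90 against 7.62, 6.38 and 7.71 (adjusted p = 0.744) and a sum of 351, 447 and 364 against 592, 264 and 678. Limma called none of 12 (0 of either direction at an unadjusted p under 0.05), the median was 0.25 (0.06 without 90-week replicate 1, -0.00 without replicate 3), and without 90-week replicate 2 it called 2 higher with a median of 0.75.

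Complement genes had a median of 0.28 over 22 (-0.13 without 90-week replicate 3, with 0 called higher and 2 lower). There was 1 rise, against 2.72% of all entries, that of C4b, a component of the classical pathway, from 3.92, 4.44 and 4.18 to 5.15, 5.34 and 5.22 (change 1.05, adjusted p = 0.0228). C3, the hub of the cascade and the brightest probe, read 6.95, 6.95 and 7.04 against 7.20, 7.35 and 7.31 (adjusted p = 0.101). Both genes separated the ages, C3 by a small step.

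Growth and imprinted genes of early life fell in part. Of 17 measured genes of 18 3 fell, against 2.89% of all entries, and the median was -0.33. Igf2bp1, a fetal RNA-binding protein, read -1.82, -1.47 and -1.30 at 10 weeks and -3.05, -3.56 and -3.95 at 90 weeks, a change of -1.99 (adjusted p = 0.0183). Peg3, an imprinted zinc finger gene, read -3.39, -3.61 and -3.88 against -4.88, -4.95 and -5.37, a change of -1.44 (adjusted p = 0.0185). Dlk1, an imprinted brake on differentiation, read -4.32, -4.30 and -4.44 against -5.38, -5.41 and -5.99, with its probe well above background on no old array, so that it was called lower (adjusted p = 0.024) and the size of its change was not measured. For all 3 the old values lay below every young value. Cdkn1c, the imprinted inhibitor p57 and the brightest probe, read 4.07, 4.33 and 4.31 against 3.69, 4.13 and 3.94 (adjusted p = 0.222). The count of 3 became 0 without any 1 young lung, and 4, 4 and 3 without 90-week replicate 1, 2 or 3, with 1 member called higher without replicate 2.

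Clock genes could show the hour of dissection as well as age, and the labels give no hour. Of 19 genes 2 rose, against 2.72% of all entries, and the median was -0.15 (0.08 without 10-week replicate 3, 0.06 without 90-week replicate 3). Cry1, a repressor of the clock, read -3.44, -3.42 and -2.89 against -2.47, -2.01 and -2.04, a rise of 1.08 (adjusted p = 0.0421). Tef, an output factor with the brightest probe, read 5.30, 5.98 and 6.21 against 5.87, 5.84 and 4.88 (adjusted p = 0.612). Cry1 separated the ages, while for Tef 10-week replicate 1 and 90-week replicate 3 were the low lungs. Immediate early and stress genes, which can respond to dissection, had a median of -0.01 over 22 (0.03 after quantile normalization). This median was -0.15 without 10-week replicate 2 and 0.14 without 90-week replicate 1. None was called by limma, with 1 higher and 1 lower at an unadjusted p under 0.05. Tsc22d3, a glucocorticoid target, read 4.91, 5.78 and 5.97 against 5.61, 6.05 and 5.93 (adjusted p = 0.527).

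The summed signal of 25 lipid synthesis genes was lower in every old lung (346, 295 and 270 against 228, 217 and 183). Their median was -0.40, and 15 had old lungs that all lay below the young ones, against 24.2% of entries. At an unadjusted p under 0.05 13 were lower. After adjustment 1 fell, against 2.89% of all entries: Pnpla3, a lipid droplet enzyme, from -2.63, -2.67 and -3.41 to -4.86, -4.44 and -4.73 (change -1.77, adjusted p = 0.0209). Fasn, fatty acid synthase and the brightest probe, read 6.52, 6.30 and 5.97 against 5.87, 5.74 and 5.63 (adjusted p = 0.115). Both follow the order of the adipose sum among young lungs, with 10-week replicate 3 the lowest. Of 28 glycolysis genes 1 fell, against 2.89% of all entries: the lactate carrier Slc16a1, from 1.02, 0.94 and 1.21 to 0.54, 0.36 and 0.45 (change -0.60, adjusted p = 0.0368). Slc16a1 was uncalled without any 1 of the lungs, young or old, and without 90-week replicate 2 limma called 3 higher. The median was 0.08 (0.05 without 10-week replicate 1, 0.19 and 0.02 without 90-week replicate 1 or 2), and Aldoa, the brightest probe, had a change of 0.05 (adjusted p = 0.846). NRF2 and detoxification genes, 25 measured of 26, had a median of -0.08 (-0.13 without 10-week replicate 1, and 0.02, -0.17 and -0.20 without 90-week replicate 1, 2 or 3), with none called by limma and 3 lower at an unadjusted p under 0.05.

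Among 25 measured genes that the study follows, 5 rose (Cdkn2a, Top2a, Birc5, Spi1 and Foxm1) and 1 fell, against 2.72% and 2.89% of all entries. The median was 0.16. It became 0.09 and 0.10 without 10-week replicate 2 or 3, and 0.06 and 0.04 without 90-week replicate 1 or 2. The fall was that of Hcar1, the lactate receptor of adipocytes, which read -3.60, -4.13 and -4.35 in the young lungs and was dim in every old lung, at least 2.69-fold lower (adjusted p = 0.0154). It moved with the adipose list, and its part in that was not tested. Spi1, the myeloid factor PU.1, rose from -2.37, -2.23 and -1.66 to -1.19, -0.72 and -0.95 (change 1.13, adjusted p = 0.0461), and Runx1, a blood cell factor, read 2.41, 2.20 and 1.95 against 1.66, 1.61 and 1.69 (change -0.53, adjusted p = 0.0777). The hypoxia factors overlapped between the ages, with changes of -0.02 for Hif1a and 0.23 for Epas1 (adjusted p = 0.92 and 0.434). Exo1, a repair nuclease, had a change of 0.72 (adjusted p = 0.0641). The brightest probe of Brca1 had a change of -0.15 and its other probe 0.74, with opposite signs. Changes for Xrcc1, Bcl2l11, Rela, Rps6ka1 and Pgam1 lay between -0.02 and 0.29, with adjusted p from 0.363 to 0.996. Without 10-week replicate 1 or 2 the 5 rises and 1 fall became 0 and 0, without replicate 3 they became 1 and 0, and without 90-week replicate 1, 2 or 3 they became 4 and 2, 4 and 2, and 2 and 1.

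The age change of the lung was also set against the mean age change of liver, kidney and WAT in a fit of all 24 arrays. Of 25785 entries 1853 lay above that mean and 1380 below, which is 7.19% and 5.35%, and 57.3% of the calls were above. Normexp gave 71.9% above, of 3014 above and 1176 below, and quantile normalization gave 46.3%, of 1499 and 1740, so the balance between the directions is not settled by these data. Leaving out 10-week replicate 1, 2 or 3 gave 876 and 815, 998 and 808, and 1140 and 937, and leaving out 90-week replicate 1, 2 or 3 gave 1690 and 1131, 1012 and 861, and 1337 and 1090.

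Several lists had a larger share of members below the mean change of the other tissues than all entries had. That mean is over liver, kidney and WAT, so a list below it need not lie below each of them. Of 35 elastic fibre and matrix genes 17 lay below that mean, of 22 collagens 8, of 21 proteases and inhibitors 9, and of 12 fibroblast genes 7, against 5.35% of all entries. The median age change of the collagens was -0.70 in lung, 0.11 in liver, 1.45 in kidney and -0.70 in WAT. For the elastic fibre list these medians were -0.45, 0.55, 1.48 and -0.08. The lung and WAT thus had lower collagen medians with age and the kidney a higher one. Secreted factors of senescent cells lay below in 14 of 27, complement genes in 8 of 21, alveolar macrophage genes in 7 of 15 and lipid-associated macrophage genes in 6 of 12. The medians of the secreted factors in lung, liver, kidney and WAT were 0.24, 1.40, 2.67 and 1.24. For complement genes they were 0.31, 0.49, 2.76 and 1.05. For lipid-associated macrophage genes they were 0.28, 1.27, 1.28 and 1.52. Alveolar macrophage genes had 0.06, 2.01, 3.16 and -0.52, so their lung median lay above that of WAT. Of 17 T cell genes 1 lay above and 2 below, against 7.19% and 5.35% of all entries, with medians of 1.28, 0.91, 2.38 and 2.40. Mitosis genes had medians of 0.91, 1.72, 1.96 and 0.70, with 1 above and 4 below of 46, against the same shares.

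The genes farthest above the mean of the other tissues were liver genes: Ttr, Fgb, Ambp, Alb and Serpinc1, 5.33 to 6.73 above. Their highest value in the lung was that of 90-week replicate 1. In WAT they changed by -4.63, -4.41, -2.17, -3.52 and -1.20, which adds to these differences. Old WAT values of Ttr and Fgb lay below the lowest values called well above background there. Ttr and Fgb were well above background in 1 young lung and Ambp in 2, so the sizes and order of these differences are uncertain. For the 24 liver genes in this fit 7 lay above, against 7.19% of all entries. The genes farthest below were Cfd, Cxcl5, Tmem45b, Ccl7 and Scgb3a1. Cfd, the complement factor that fat secretes, read 6.25, 6.34 and 5.49 in young lungs and -7.02, -3.06 and 2.87 in old ones, a difference of -8.33 from the mean change of the other tissues (adjusted p = 0.0198). Its changes in liver, kidney and WAT were -5.36, 5.00 and 0.04. Cxcl5, a neutrophil chemokine, read 3.42, -0.76 and -2.0 against -4.10, -4.00 and -0.85 in lung and rose by 7.50 in kidney, a difference of -7.01 (adjusted p = 0.002). Ccl7, a monocyte chemokine, read 0.28, -1.20 and -2.44 against -2.53, -4.91 and -1.61, a difference of -5.92 (adjusted p = 0.00248). Within the lung alone neither chemokine separated the ages. Tmem45b, a membrane protein of epithelia and fat, read 0.50, 0.17 and -1.05 against -7.05, -7.84 and -2.38, a difference of -6.02 (adjusted p = 0.00215), and Scgb3a1 differed by -5.84 (adjusted p = 0.00319). Those 2 genes, and Cfd, were high in every young lung and highest among the old in 90-week replicate 3. Tmem45b was well above background in 1 old lung and Cfd in 2, so their sizes and order are uncertain too. Young kidney values of Cxcl5 (-6.18, -5.32 and -7.47) lay below the lowest values called well above background there (-5.672, -5.241 and -5.4). The same held for young kidney values of Scgb3a1, and for Ccl7 in 10-week kidney replicates 1 and 2 (-7.60 and -7.27). The kidney change of Cxcl5 and the differences of these genes are thus uncertain in size and order. The part of other-tissue RNA in these differences was not tested.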

How the data were processed

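Lung RNA of male C57BL/6J mice was measured on 1-colour (Cy3) Agilent arrays, 3 at 90 weeks and 3 at 10 weeks, taken by their tissue label. Scans were read by the authors with Feature Extraction 11.0.1.1, and the intensity in arbitrary units was deposited as background-subtracted signal that had not been normalized between arrays. The headers name mouse build mm9, and probe targets were mapped by their RefSeq name to mouse symbols. Of 56605 probes 32994 (58.3%) matched one of 22911 symbols, so a gene described as not measured is one with no tested entry under its symbol. Spots marked as outliers in the files (386, at most 105 on an array) were left out, and none was saturated.

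The log2 signal minus the 75th percentile of the array over non-control probes was used, so 0 is that percentile. A probe was kept when 3 or more lung arrays called it well above background, and a gene with several probes was represented by the brightest. Old and young lungs were compared with limma 3.58.1 in R 4.3.3 (moderated t, Benjamini-Hochberg adjustment, threshold 0.05). All p printed for lung genes come from this test, except those given with a difference from the other tissues. Those come from the fit of all 24 arrays. "Adjusted" refers to the Benjamini-Hochberg adjustment of the test named, and log2 changes are 90 minus 10 weeks. A gene whose probes were all dim on every array of a group has a fold given as a lower bound. The lung was set against liver, kidney and WAT in a limma fit of all 24 arrays. The precision is that of 3 arrays a group, with a median standard deviation of 0.121 and 0.202.

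Genes were named by rule: the 10 largest changes each way among genes past the threshold with groups apart and the brighter group above background, called members of each list (at most 4, otherwise 2 each way) with the member of highest mean signal, the genes the study follows, the 5 largest differences each way from the other tissues, and defining markers of tissues. The rule and most alternatives were fixed before the data were examined, but members of lists were chosen with earlier results of these data known. The 49 lists were scored by counts, medians and summed signal. Alternatives were normexp (offset 50), quantile normalization, no filter, the mean of a gene's probes, 1 fit of all arrays, the replicate number as a block, the methods' t-test, leaving out entries at least 8-fold brighter in young liver or WAT, leaving out each lung, and for the tissues a random block of age and replicate number. Array quality weights and probes above background on all 6 arrays were added, both chosen after seeing the data.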

Additional observations from a re-analysis of the deposited data

Results flagged for a closer look

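The age change of the lung differed from the mean age change of liver, kidney and WAT, by a limma test of the difference itself, for 1853 entries above and 1380 below. The genes farthest above were Ttr (6.73), Fgb (6.52), Ambp (6.39), Alb (6.02) and Serpinc1 (5.33), all made by liver and all highest, among the lungs, in 90-week replicate 1, the lung with the summed liver signal of 513. Those farthest below were Cfd (-8.33), Cxcl5 (-7.01), Tmem45b (-6.02), Ccl7 (-5.92) and Scgb3a1 (-5.84), as log2 differences. Ttr and Fgb were well above background in 1 young lung, Ambp in 2, Tmem45b in 1 old lung and Cfd in 2 old lungs. Young kidney values of Cxcl5 and Scgb3a1, and of Ccl7 in replicates 1 and 2, lay below the lowest values called well above background there. The same held for old WAT values of Ttr and Fgb. In WAT the liver genes changed by -4.63 to -1.20, which adds to their differences. These sizes and their order are therefore uncertain. The lung samples held 3 animals an age, too few for a search for single outlying samples, and the part of RNA from neighbouring tissue in these differences was not tested.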

How the results depend on the processing

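The 825 higher and 875 lower entries became 304 and 136 with no filter on dim probes, 99 and 132 by the methods' t-test after adjustment, and 2309 and 5027 by that test unadjusted. Normexp gave 498 lower and 1 fit of all 24 arrays gave 383 lower. Leaving out 1 lung in turn gave 1 to 1088 higher and 1 to 905 lower, and with 2 lungs left at an age fewer samples are tested. Quantile normalization, the mean of a gene's probes, array quality weights and probes above background on all 6 arrays (the last 2 chosen after seeing the data) and leaving out liver-bright or WAT-bright entries kept both counts within 1.5 times, with 1554, 1567, 1596, 1413 and 1540 calls shared.

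With replicate number as a block limma called 1 entry higher (AK139943) and 0 lower, with 2676 and 4331 at an unadjusted p under 0.05. As deviations from the mean of their age, lungs of the same number had correlations of -0.10, -0.06 and -0.17, and each young lung correlated best with an old lung of another number. The block takes 2 of the 4 residual degrees of freedom.

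Of the counts against the other tissues, 1853 above became 3014 with normexp. Leaving out 1 lung gave 876 to 1690 above and 808 to 1131 below. The cause was not tested.

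For single genes, settings other than leaving out a lung kept direction and side of the threshold in 914 cases, lost the call in 263, gained it in 40 and turned the direction in 7, all of genes not called: with the mean of probes Siglech (-0.49), Brca1 (0.29) and Rela (0.00), with quantile normalization Aldoa (-0.05), Cyp2f2 (-0.27) and Hif1a (0.02), and with normexp Bcl2l11 (-0.01). Leaving out 1 lung kept 601, lost 275, gained 13 and turned 29, again of genes not called. Their lowest and highest changes were -0.02 and 0.29 for Sftpc, -0.04 and 0.27 for Scgb1a1, -0.45 and 1.03 for Cd79b, -0.00 and 0.21 for Siglech, -0.02 and 0.20 for Gata2, -0.67 and 0.13 for Rbp4, -0.39 and 0.20 for Tnni2, -0.39 and 0.02 for Cd1d1, -0.09 and 0.17 for Aldoa, -0.15 and 0.13 for Ifi27, and -0.03 and 0.63 for H2-Ab1. For Tef they were -0.57 and 0.02, for Tsc22d3 -0.01 and 0.52, for Cyp2f2 -0.14 and 0.17, for Hif1a -0.05 and 0.01, for Bcl2l11 -0.08 and 0.04, for Il6 -1.20 and 0.63, for Cxcl1 -0.24 and 1.05, and for Rela -0.10 and 0.03. The causes were not tested.

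List medians moved by less than the spread between replicates in 280 cases of leaving out a lung and by more in 14, and in 388 and 4 cases under the other settings. Signal over background limits genes near background: 27 entries called higher were dim in all young lungs and 70 called lower were dim in all old lungs, so that their size is known as a bound at most.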

Other observations

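Some genes with large changes and little spread in the lung changed the same way in other tissues. They were chosen after their values were seen, and no test of the shared direction was made. Lrmda, a melanocyte differentiation gene, read 1.65, 1.71 and 1.78 in young lungs and -1.07, -0.89 and -1.02 in old ones (change -2.71), with changes of -0.77 in liver, -2.91 in kidney and -3.60 in WAT. Tmem254a changed by -2.40, -2.34, -2.81 and -3.40 in lung, liver, kidney and WAT, Tmem254c by -2.04, -2.39, -2.79 and -3.0, and Plac9a by -2.51, -0.78, -0.53 and -1.85. Entpd4 changed by -0.77, -1.10, -2.43 and -1.28 and 4933409K07Rik by -4.40, -4.84, -2.97 and -2.98. The probe of 4933409K07Rik was well above background in 1 old lung. Its old liver and kidney values lay below the lowest values called well above background there, so these sizes are uncertain. Csprs went up in each, by 4.35, 2.75, 4.06 and 7.21. Duxbl2, dim in every old lung, was at least 1.64-fold lower there (adjusted p = 0.0188), with changes of -0.49 in liver, 0.62 in kidney and -2.63 in WAT. Whether its probe was above background in those tissues is not given, so no direction is read there. The methods name 1 supplier of C57BL/6 mice without stating which ages came from it, and whether these differences reflect age or another difference between the mice is unknown. No explanation was tested.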
